A study of Mus musculus with 6 samples.

Results

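A set of 10 imprinted genes that act on growth was followed in haematopoietic stem cells (HSCs) that carried or lacked the lymphotoxin beta receptor gene Ltbr. They were H19, Igf2, Igf2r, Dlk1, Meg3, Peg3, Grb10, Ndn, Plagl1 and Gnas, taken by symbol, and all 10 stood among the 26216 gene names of the 6 samples. LT/ST-HSCs, a sort that holds long-term and short-term HSCs, were taken from bone marrow of chimeric mice 6 weeks after transplantation. Lethally irradiated Ly5.1/Ly5.2 recipients had received Lin- Sca1+ c-kit+ cells of both donors, so the 2 genotypes had shared the same hosts. The Ltbr-/- donors (CD45.2) were 13 weeks old for replicate 1, 10 weeks for replicate 2 and between 10 and 13 weeks for replicate 3. The Ly5.1 donors (CD45.1), which carried intact Ltbr, were between 7 and 13 weeks old in all 3 replicates. Ltbr-/- is a germline deletion, and cells of several chimeras were pooled for each replicate, so 3 samples stood against 3. Donor age, the CD45 allele and genotype cannot be told apart in this design. Values are the deposited signal on a linear scale, read here, from the study's methods and the values, as the antilog of a regularized logarithm, which draws low values towards each other. The files hold signals without read counts and give no depth for single samples, so no counting error could be set beside a value.

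An imprinted gene is transcribed mainly from the copy of one parent, as marked by DNA methylation laid down in the germ line. Many genes expressed from the paternal copy favour growth and many expressed from the maternal copy restrain it. Igf2 is a growth factor that signals through the receptor Igf1r, whereas Igf2r carries Igf2 to the lysosome. The noncoding RNA H19 shares enhancers with Igf2, and Dlk1 and the noncoding RNA Meg3 form another such pair. Grb10 is an adaptor that dampens insulin and IGF receptor signalling. Ndn (necdin) restrains cell proliferation, Plagl1 is a zinc finger transcription factor that acts on other imprinted genes, and Peg3 is a further zinc finger protein. Gnas encodes, among other products, the stimulatory G protein alpha subunit that couples receptors to cyclic AMP. The maternal H19 region and the Dlk1-Meg3 region are known for keeping adult HSCs quiescent.

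The genes that were measured well in these cells start at regions of unlike base composition, and 4 of those regions are shown because a single gene-level value covers every start of a gene. The sequences are the 250 bases before a RefSeq transcription start, in assembly GRCm38.p6, written 5′ to 3′ on the strand of the gene. Capitals mark the letters TATAAA and GGGCGG on either strand, the second being the core of the GC box.
Gnas, chr2:174284070-174284319, plus strand: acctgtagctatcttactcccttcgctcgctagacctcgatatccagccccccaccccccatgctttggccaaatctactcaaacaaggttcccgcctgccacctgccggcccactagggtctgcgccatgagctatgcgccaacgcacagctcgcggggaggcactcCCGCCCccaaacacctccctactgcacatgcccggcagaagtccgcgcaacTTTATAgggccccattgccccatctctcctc
Grb10, chr11:12037421-12037670, minus strand: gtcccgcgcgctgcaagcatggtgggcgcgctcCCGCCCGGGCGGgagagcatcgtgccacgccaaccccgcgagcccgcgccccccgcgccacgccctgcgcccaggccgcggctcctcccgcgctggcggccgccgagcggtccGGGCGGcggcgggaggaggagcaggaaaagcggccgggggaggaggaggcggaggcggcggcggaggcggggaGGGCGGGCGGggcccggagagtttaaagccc
Grb10, chr11:12027972-12028221, minus strand: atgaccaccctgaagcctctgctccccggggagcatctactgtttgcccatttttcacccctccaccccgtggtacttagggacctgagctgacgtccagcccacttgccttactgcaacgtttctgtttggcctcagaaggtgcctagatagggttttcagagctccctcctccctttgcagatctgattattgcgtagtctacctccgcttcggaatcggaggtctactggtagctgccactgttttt
Igf2r, chr17:12769707-12769956, minus strand: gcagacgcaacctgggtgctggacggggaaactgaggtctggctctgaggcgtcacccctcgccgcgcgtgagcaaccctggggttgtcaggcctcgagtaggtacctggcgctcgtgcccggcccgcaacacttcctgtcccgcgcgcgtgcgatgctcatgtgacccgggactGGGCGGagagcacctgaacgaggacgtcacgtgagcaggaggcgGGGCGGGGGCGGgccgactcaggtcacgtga
The upstream Gnas region held 14 CG pairs, with 1 match to TATAAA and 1 to GGGCGG. It precedes the transcripts with a coding length of 759 bases, not the start of the stimulatory G protein alpha subunit at 174330006. The region before that start, not shown, held 29 CG pairs, 2 matches to GGGCGG and no match to TATAAA. Which start gave the Gnas signal was not tested. At the outer Grb10 start there were 40 CG pairs and 5 matches to GGGCGG, some of them overlapping, whereas the inner start had 8 CG pairs and no match to either motif. The Igf2r region held 27 CG pairs and 3 matches to GGGCGG. Of the starts not shown, those of Gnas further inside the gene had between 21 and 29 CG pairs and that of Ndn had 5. Over all 32851 starts of the table the median was 6 CG pairs, 32.7% of starts held GGGCGG and 12.4% held TATAAA. A match is a description of the letters only. A start was listed for 9 of the 10 genes, with 17 starts in all, and none was listed for H19.

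Of the growth genes, 6 were close to the lowest level of the files. Igf2 (chr7:142650768-142666816) was listed at a signal of exactly 1 in all 6 samples, and so was Plagl1 (chr10:13090832-13131694). The same value stood in every sample for 9034 gene names, while single values of other names went down to 0.254, so 1 was not the lowest value possible. All names that were constant over the 6 samples stood at 1. Whether any read was counted for them is not given, so their 1 is not to be read as a level above those lower values. H19 (chr7:142575530-142578146) had signals of 2.08, 2.03 and 2.03 in the Ltbr-/- samples and of 2.03, 2.03 and 2.05 in the Ly5.1 samples. For Peg3 (chr7:6703892-6730462) 5 samples stood at 1.04 and Ly5.1 replicate 3 at 1.06. None of these 4 genes reached the lowest mean signal that was tested, 14.4.

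The Dlk1-Meg3 pair was little higher. Dlk1 (chr12:109452485-109463336), a membrane protein of the Notch ligand kind, had signals of 6.26, 6.33 and 6.41 in Ltbr-/- and of 6.43, 6.27 and 6.21 in Ly5.1 samples. Meg3 (chr12:109540996-109571729) had 6.28, 6.42 and 6.22 in Ltbr-/- and 6.32, 6.40 and 6.31 in Ly5.1 samples. The groups overlapped for both genes, and the values of Dlk1 and Meg3 could not be put in order. Over the 6 untested genes the widest span between any 2 samples was 0.052 on the log2 scale. Among all names with a mean log2 signal from 2 to 4 the median span was 0.077, so a narrow span was common to genes of this level. The 6 genes stood below the tested range, and in a limma fit without the filter none of them passed (lowest adjusted p = 0.837, for Peg3).

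Part of this list can be misread by short reads. With reads of 76 bases, 60.2% of the windows along Igf2 transcripts were also found on the same strand of Gm49394, a gene model that joins Igf2 with its neighbour. For Meg3, 3.82% of windows were shared on the same strand with small RNA genes inside it and 5.82% lay opposite Gm26906. In Gnas, 17.1% of windows lay opposite the antisense genes Nespas and Gm20721, and Nespas itself had signals between 3.97 and 4.11. The library kit kept the strand of the RNA, but whether strand was used in the counting is not given in the sources used here. No window was shared for Igf2r, Dlk1, Peg3, Grb10, Ndn or Plagl1.

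**Figure D1:**
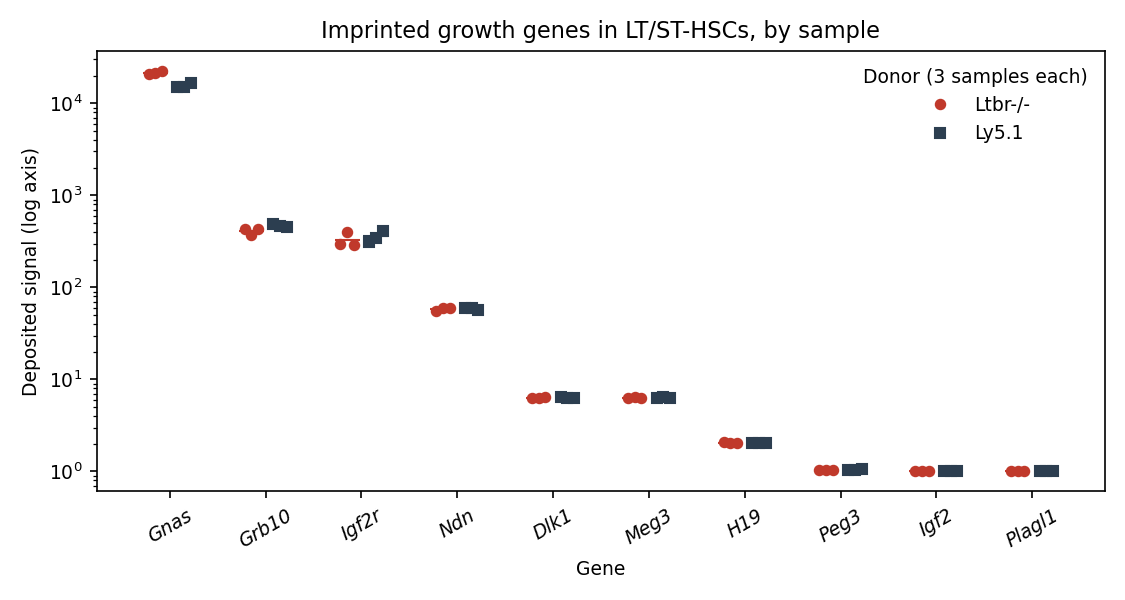
Deposited signal (log axis) of each imprinted growth gene in the 3 Ltbr-/- samples (circles) and the 3 Ly5.1 samples (squares), with a short line at each group mean. Gnas lies between 14890 and 22603 with the groups apart, Grb10, Igf2r and Ndn lie between 54.8 and 488, and the other 6 genes lie between 1 and 6.43.

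Of the 10 growth genes, 4 had enough signal to be tested between genotypes, and Gnas alone passed the test. The fit was limma on log2 signal over the 13108 names of the upper 50% by mean, with Benjamini-Hochberg adjustment over all of them and a threshold of 0.05. Of the 4 tested genes 1 was higher in Ltbr-/- LT/ST-HSCs, against 10.6% of all tested names, and 0 were lower, against 4.18% of all. In either direction 14.8% of all tested names were called. At an unadjusted p under 0.05 the count was the same, 1 of 4. None was also past a fold of 1.5, which 2.78% of all tested names were. The median difference of the 4 genes was -0.07 on the log2 scale, beside -0.01 over all tested names. This median was -0.02 without Ltbr-/- replicate 1, -0.04 without Ltbr-/- replicate 3, -0.03 without Ly5.1 replicate 3 and 0.15 when the upper 25% of names were tested, which leaves Gnas and Grb10.

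Gnas (chr2:174284320-174346744) was the most abundant growth gene. Its signals were 20744, 21480 and 22603 in the Ltbr-/- samples and 15190, 14890 and 16460 in the Ly5.1 samples. Every Ltbr-/- sample was above every Ly5.1 sample, with means of 21609 ± 936 and 15513 ± 834 (SD, n = 3 each). Of all tested names, 17% had groups apart in this direction and 30.4% in either direction. The log2 difference was 0.48 (SE 0.059, limma adjusted p = 5.53e-08), a fold of 1.39 with a 95% interval, as all intervals here, from 1.28 to 1.51. A permutation of the 6 samples gave an exact two-sided p of 0.1, the smallest that 3 against 3 can give. This rise stands on the scale as deposited, and it turned to -0.40 (adjusted p = 3.14e-10) when samples were centred on ribosomal protein genes and to 0.06 (adjusted p = 0.402) after quantile normalization.

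Abundant genes as a group were higher in Ltbr-/- samples on the deposited scale. Among the 52 tested genes with a mean log2 signal of 14 or more, 37 were higher in Ltbr-/- cells and 6 lower, and the median difference was 0.57. Gnas stood 28th from the highest in that band, near the middle of equally abundant genes. Of those 52 genes, 16 encode ribosomal proteins, and over all 80 tested ribosomal protein genes the median difference was 0.79. In the band from 8 to 10, which holds Igf2r and Grb10, the median was -0.02 and 10.2% of 4772 genes were higher. Centring on ribosomal protein genes moved the median of all tested names to -0.89, and Gnas then lay 0.49 above it, as it did on the deposited scale. After quantile normalization Gnas was 0.08 above the median of all tested names.

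**Figure D2:**
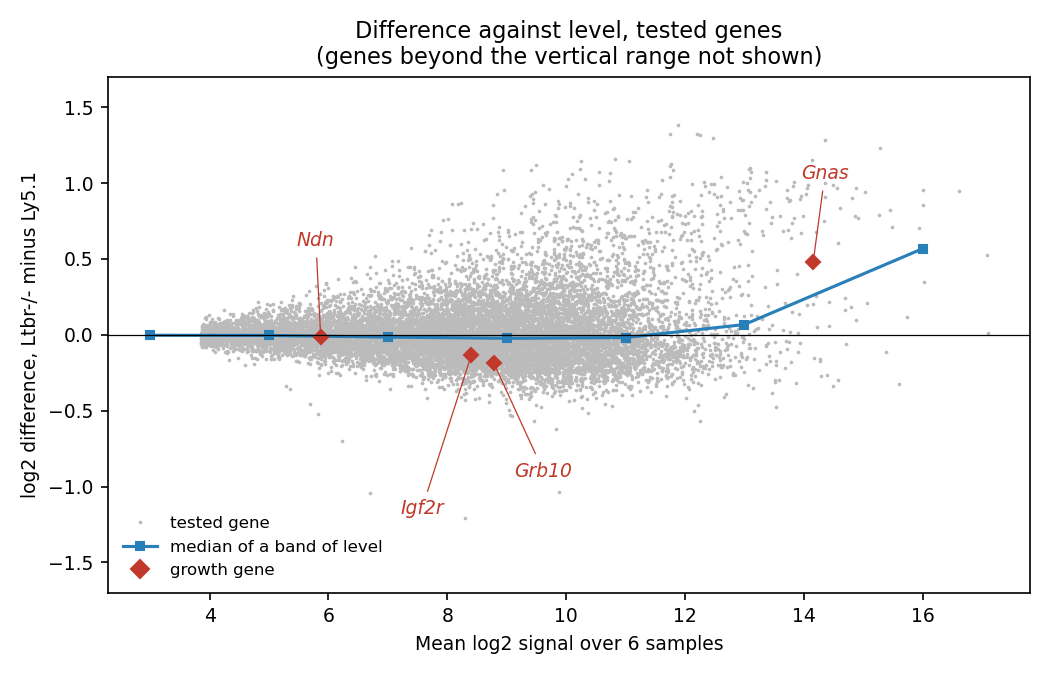
Log2 difference (Ltbr-/- minus Ly5.1) of each tested gene against its mean log2 signal over the 6 samples, with the median of each band of level (squares joined by a line). The line stays near 0 up to the band from 10 to 12 and reaches 0.57 in the highest band, where Gnas lies at 0.48, while Grb10, Igf2r and Ndn lie close to or below the line.

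The value of Gnas sums transcripts with different starts and products. The GENCODE annotation has starts at 174284320 with a coding length of 759 bases, at 174297859 with up to 3399 bases and at 174330006 with 1140 bases, the last being the ubiquitous G protein alpha subunit. Further starts lie near 174327768. Some of these starts, not all, are known to be used by different parental copies, and neither the start nor the allele can be read from 1 value per gene. Per kilobase of its longest transcript the mean signal of Gnas was 4703, above 98.9% of tested names.

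Grb10, the brake on insulin and IGF receptors, had lower signals in every Ltbr-/- sample but did not pass the test. Grb10 (chr11:11930499-12037428) had signals of 431, 374 and 436 in Ltbr-/- and of 488, 465 and 454 in Ly5.1 samples. The groups did not overlap, a pattern that 30.4% of tested names showed in one direction or the other and 13.5% in this one. The log2 difference was -0.18 (SE 0.094, limma adjusted p = 0.203), with an interval from -0.38 to 0.01. Without Ltbr-/- replicate 2, the lowest sample, it was -0.11 (adjusted p = 0.564). The interval of all 6 samples thus holds 0 and leaves room for a fold down to 0.771.

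Igf2r was the least steady of the tested genes between replicates. Igf2r (chr17:12682406-12769706) had signals of 293, 402 and 288 in Ltbr-/- and of 310, 347 and 415 in Ly5.1 samples. Ltbr-/- replicate 2 and Ly5.1 replicate 3 were the highest, and the groups overlapped. The log2 difference was -0.13 (SE 0.112, limma adjusted p = 0.480), with an interval from -0.36 to 0.09. Its SD within groups was 0.24 on the log2 scale, larger than in 99.5% of the 4772 tested genes of the same band, whose median was 0.11. Leaving out Ltbr-/- replicate 2 moved the difference to -0.29 and leaving out Ly5.1 replicate 3 to -0.02, and neither value passed the test.

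Ndn differed least. Ndn (chr7:62348277-62349928) had signals of 54.8, 60.2 and 59.7 in Ltbr-/- and of 59.0, 60.0 and 57.1 in Ly5.1 samples, and the groups overlapped. The log2 difference was -0.01 (SE 0.065, limma adjusted p = 0.934), with an interval from -0.14 to 0.12, or folds from 0.905 to 1.09. This interval covers the deposited values only, which are drawn towards each other at low signal, so a larger change in the RNA is not excluded. Centred on ribosomal protein genes the difference was -0.89 (limma adjusted p = 1.83e-13), beside a median of -0.89 over all tested names. Per kilobase of transcript the mean signals were 87.2 for Grb10, 38.5 for Igf2r and 15.8 for Ndn. These values divide by the longest GENCODE transcript, which for Ndn was 3.694 kb. On that scale the order was Gnas, Grb10, Igf2r and Ndn. The RefSeq span of Ndn given above is shorter than that transcript. The value per kilobase thus depends on the length used, and the order under other lengths was not tested.

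Other imprinted genes were called in both directions. Of 65 written down, 61 stood in the files, 18 of them at 1 in all samples, and 30 were tested. Of these, 1 was higher and 4 were lower in Ltbr-/- cells, 3.33% and 13.3% of the tested ones, beside 10.6% and 4.18% of all tested names, and the 5 together stood beside 14.8% of all in either direction. This share was not tested against the other genes. The median difference of the 30 genes was -0.05, and 18 of them lay below 0.

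Nudt22, a hydrolase of nucleotide sugars, was the one that rose, with a log2 difference of 0.45 (SE 0.092, limma adjusted p = 5.00e-04). The 4 that fell were Slc22a3, a cation transporter next to Igf2r, by 0.31 (adjusted p = 0.0111), the noncoding RNA Peg13 by 0.30 (adjusted p = 0.0121), Impact, a regulator of translation control, by 0.30 (adjusted p = 0.0296), and Nap1l4, a histone chaperone, by 0.23 (adjusted p = 0.0446). Nap1l4 passed in 1 of the 6 fits that left out a sample, Impact in 3, Slc22a3 in 4, Peg13 in 5 and Nudt22 in 6. The count of 5 genes fell to 2 without Ltbr-/- replicate 1, to 2 without Ltbr-/- replicate 3 and to 3 without Ly5.1 replicate 3. Centred on ribosomal protein genes, all 30 were lower, Nudt22 included.

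Cdkn1c, the imprinted cell cycle inhibitor p57 that holds HSCs in quiescence, was measured and did not pass. Cdkn1c had signals of 96.1, 96.2 and 86.3 in Ltbr-/- and of 107, 105 and 88.6 in Ly5.1 samples, with a log2 difference of -0.11 (SE 0.083, limma adjusted p = 0.421) and an interval from -0.28 to 0.06. Mest, another growth gene of this class, had signals between 8.14 and 8.70 and was not tested. Snrpn, a splicing protein gene, stood between 1.03 and 1.05.

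**Figure D3:**
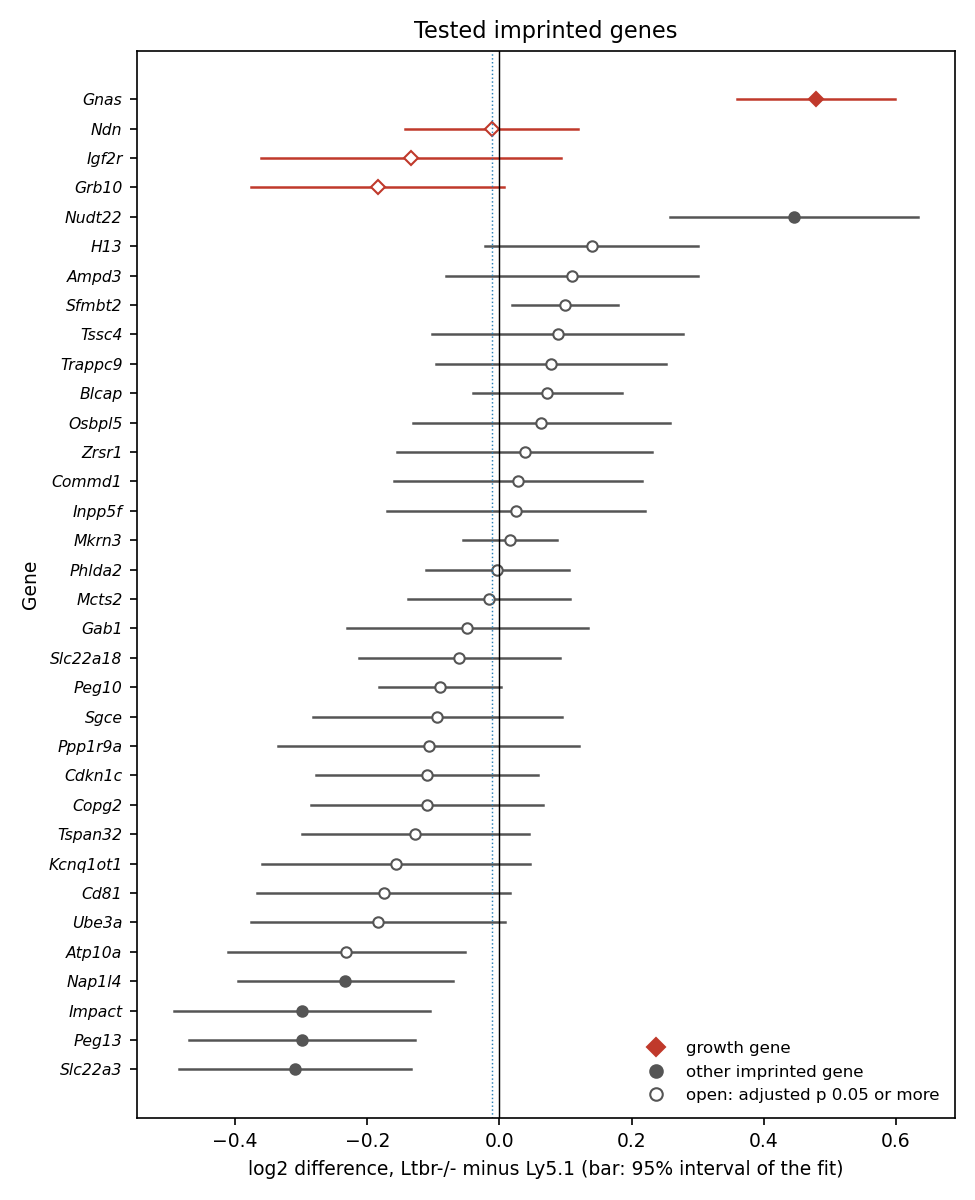
Log2 difference (Ltbr-/- minus Ly5.1) of the 4 tested growth genes (diamonds) and of the 30 other tested imprinted genes (circles), with 95% intervals of the limma fit, filled where the adjusted p was under 0.05. The dotted line is the median of all tested names, -0.01; Gnas at 0.48 and Nudt22 at 0.45 stand to the right and 4 filled circles stand at the lower left.

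Around the tested growth genes, neighbours were called in both directions, beside 10.6% of all tested names that were higher and 4.18% that were lower. These directions, and those of the pathway genes further on, hold on the deposited scale, and centring on ribosomal protein genes, which takes the same amount from every gene, leaves each named rise below 0. Distances were taken between the lower coordinates of genes. For Igf2r and Grb10, on the minus strand, that coordinate is the 3′ end of the gene. Within 1 Mb of Igf2r on this measure, 10 genes were tested. Of these, Tcp1, a chaperonin subunit, rose by 0.27 on the log2 scale (limma adjusted p = 0.00348). Sod2, a mitochondrial superoxide dismutase, rose by 0.25 (limma adjusted p = 0.0466), and Slc22a3 fell. Of 9 tested genes around Gnas, Ctsz (a lysosomal protease) rose by 0.42 (adjusted p = 4.07e-04) and Atp5e (an ATP synthase subunit) by 0.78 (adjusted p = 3.42e-09), and 0 fell. None of the 3 genes tested around Grb10 and the 1 around Ndn passed. With so few neighbours, the counts were not tested against the shares of all names. The genes whose log2 signals followed Gnas most closely over the 6 samples were Pfkp (Pearson r = 0.9999) and Gm14958 (0.9998). Both were themselves higher in Ltbr-/- samples on the deposited scale, by 0.68 and 0.57 on the log2 scale, and the 6 points share the 2 genotypes.

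Several of the growth genes act through the IGF pathway. Of its 36 listed genes 24 were tested, 1 was higher (4.17%, beside 10.6% of all tested names) and 0 were lower (beside 4.18%), with a median log2 difference of -0.06 beside -0.01 over all. Igfbp4, a secreted IGF-binding protein, rose by 0.28 (adjusted p = 0.0242), from a mean signal of 1923 ± 208 to 2325 ± 144 (SD, n = 3 each). Igf1r, the receptor of Igf2, had a log2 difference of -0.003 (SE 0.107, adjusted p = 0.989), and its samples ran from 852 to 1262. M6pr, the second mannose 6-phosphate receptor beside Igf2r, had -0.06 (SE 0.089, adjusted p = 0.718).

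Factors that write or read imprints were measured in 17 of 20 cases, with 1 higher (5.88%, beside 10.6% of all tested names), 2 lower (11.8%, beside 4.18%) and a median log2 difference of -0.10. In either direction 14.8% of all tested names were called, so 3 of 17 is a share near that of all genes. Ctcf, the insulator protein that binds the control region between H19 and Igf2, fell by 0.34 (SE 0.083, adjusted p = 0.00311), from 2468 ± 163 to 1950 ± 123 (SD, n = 3 each). Dnmt1, which copies methylation after replication, fell by 0.23 (SE 0.064, adjusted p = 0.00979). Dnmt3l, a partner of the germline methyltransferases, rose by 0.27 (SE 0.077, adjusted p = 0.0145) with signals of 73.8, 79.3 and 86.9 in Ltbr-/- and of 74.6, 62.8 and 62.3 in Ly5.1 samples. In a list of 9 microRNA processing factors and other regulators of growth genes 7 were tested. Dgcr8, the partner of Drosha, fell by 0.35 (limma adjusted p = 0.00896), which is 14.3% of the 7 beside 4.18% of all tested names. The other 6 did not pass.

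Around the Gnas protein, 19 of 21 genes of the Gs and cyclic AMP pathway were tested, a list that includes other G protein subunits. Of the 19, 1 was higher (5.26%, beside 10.6% of all tested names) and 3 were lower (15.8%, beside 4.18%). Gng5, a G protein gamma subunit, rose by 0.44 (adjusted p = 8.65e-04). The adenylyl cyclases Adcy7 and Adcy6, which make cyclic AMP, fell by 0.36 (adjusted p = 0.00154) and by 0.28 (adjusted p = 0.0317). Gnai3, an inhibitory alpha subunit, fell by 0.27 (adjusted p = 0.0464). The median of the 19 genes was -0.09, and 14 of them lay below 0.

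Marker lists are given by their counts beside the 10.6% of all tested names that were higher and the 4.18% that were lower, on the deposited scale; centring on ribosomal protein genes takes the same amount from each marker too. Ltbr itself had signals of 24.2, 26.4 and 23.1 in Ltbr-/- and of 564, 549 and 522 in Ly5.1 samples, which matches the labels. All 14 defining HSC genes were tested, with 1 higher and 3 lower, and summed to between 21248 and 21662 in Ltbr-/- and between 22823 and 23593 in Ly5.1 samples. Of 9 granulocyte markers, 8 were lower in Ltbr-/- samples, with sums between 44544 and 45315 against 58282 and 62917, and their RNA was thus present in the samples of both donors. Of 5 tested mast cell markers 2 were higher, with sums between 7070 and 7461 against 3402 and 4007. Most of these sums was Cma1, with means of 5470 in Ltbr-/- and 2195 in Ly5.1 samples. The log2 differences of 3 of the 5 lay below 0, and the median of the 5 was -0.04. For the remaining lists, 2 of 8 erythroid and 2 of 7 macrophage markers tested were higher, 1 of 4 megakaryocyte markers was higher and 1 lower, 1 of 6 B and plasma cell markers was higher and 3 lower, 1 of 5 endothelial markers was lower and 0 of 2 T cell markers passed. Igf2, H19, Dlk1 and Peg3 can be abundant in stromal cells. Of 12 stromal markers, 6 were listed at 1 in every sample (Lepr, Kitl, Col3a1, Pdgfra, Sp7 and Bglap). The 4 tested ones were Col1a1, Col1a2, Pdgfrb and Runx2, with signals from 21.9 (Col1a1) to 356 (Runx2), and 0 of them passed. Fewer cells of a type and less RNA per cell cannot be told apart here, and the part of the marker differences in the result on Gnas was not tested.

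**Figure D4:**
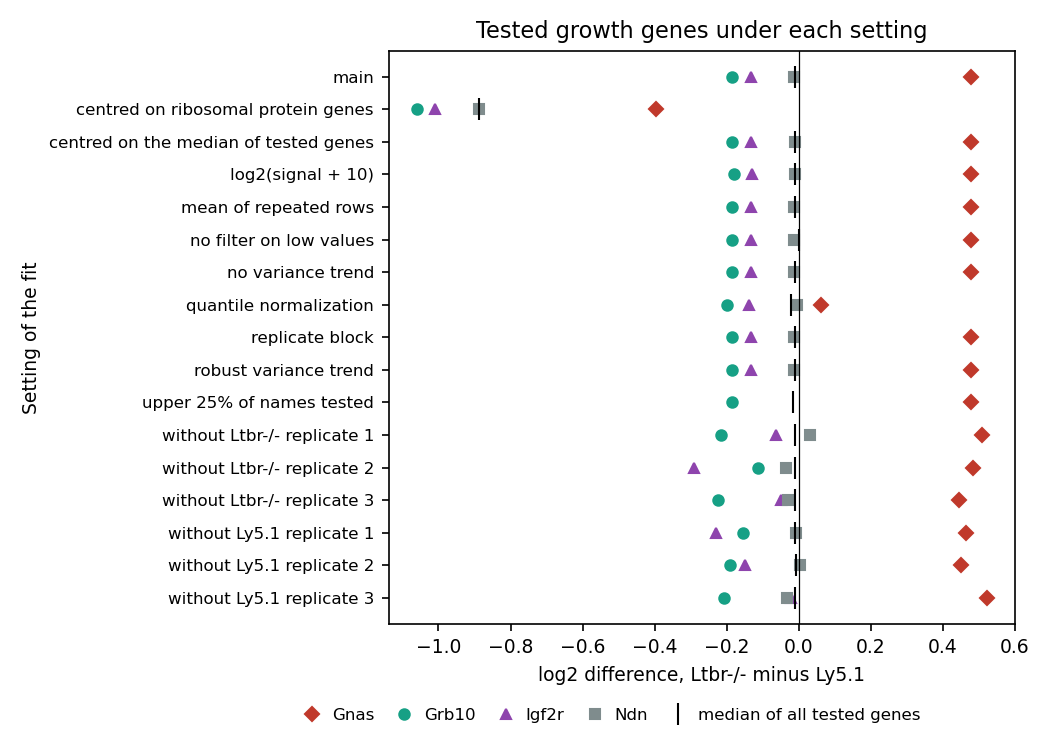
Log2 difference (Ltbr-/- minus Ly5.1) of Gnas, Grb10, Igf2r and Ndn under each setting of the fit, with the median of all tested names as a black tick. Gnas stays between 0.45 and 0.52 when single samples are left out, falls to 0.06 under quantile normalization and to -0.40 when centred on ribosomal protein genes, where the tick lies at -0.89.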

How the data were processed

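Each deposited file held 1 sample, with 26595 gene rows. The authors had sequenced poly(A) RNA as single reads of 76 bases, mapped them with SeqMan NGen and normalized in ArrayStar with a regularized logarithm; the deposited signal is linear and was read as its antilog. The submitters' processing notes name DESeq2 and the mouse builds GRCm38 and mm10. The deposited values are a signal scaled by size factors and shrunken, not counts, so no count test was run. For 75 repeated symbols the row with the highest mean was kept. Log2 signal was fitted with limma 3.58.1 (trended variance, R 4.3.3) over all 6 samples, for the upper 50% of names by mean, without a pseudocount; an adjusted p under 0.05 was a call and a fold of 1.5 was counted separately. The fit was tested on simulated data. Genes named were the 10 growth genes, Ltbr, called genes of the listed pathways, 5 preset ones, called neighbours within 1 Mb and the 3 genes most like Gnas, of which 1 is not reported here. The members and lists were chosen with earlier results of these data known. Sequences came from RefSeq and transcripts from GENCODE. The alternatives were another pseudocount, filters, scalings, variance models, a replicate block and leaving out each sample.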

Additional observations from a re-analysis of the deposited data

How the results depend on the processing

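Of the 16 alternative settings, 14 kept Gnas higher and past the threshold. Leaving out single samples gave log2 differences from 0.4457 to 0.522 for Gnas, with adjusted p from 2.09e-10 to 1.70e-05, from -0.2238 to -0.1138 for Grb10, and from -0.0367 to 0.0317 for Ndn, whose sign turned without Ltbr-/- replicate 1 (0.0317) and without Ly5.1 replicate 2 (0.0036). Centring on ribosomal protein genes gave -0.3967 for Gnas, 0 growth genes higher and 4 lower, 3 growth genes past both thresholds, and, of the other imprinted genes, 30 called, 0 higher and 30 lower. This centring takes the same amount from the difference of each gene. Quantile normalization gave 0.0623 for Gnas and 0 growth genes higher, and the cause was not tested. Without a filter on low values 1 other imprinted gene was called and 0 were lower. That setting tested more names and also changed unadjusted p-values of the limma fit, for Gnas from 1.07e-09 to 2.46e-04. Leaving out single samples gave from 2 to 5 other imprinted genes called, from 1 to 2 higher (2 without Ltbr-/- replicate 2) and from 1 to 4 lower. Testing the upper 25% of names left out Igf2r and Ndn. With the replicate block, Gnas had 0.48 (adjusted p = 1.69e-08) and no call of a growth gene changed. Same-numbered samples deviated together little (correlations 0.0314, -0.0052 and 0.0899), so the numbers were not read as a pairing. The files give no depth for single samples, and 3 samples a group limit what could pass.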
